A study of Mus musculus with 6 samples.

Results

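Of 10 transcription factors that pattern the Müllerian duct, the embryonic tube that becomes oviduct, uterus, cervix and upper vagina, 9 were measured in uteri of 2-week-old female mice, by 14 probe sets of an Affymetrix array. The members were taken by name: every probe set to which the platform annotation gives exactly 1 gene symbol, equal to Hoxa9, Hoxa10, Hoxa11, Hoxa13, Msx1, Msx2, Emx2, Pax2, Lhx1 or Sox17. Pax2 was not analysed here. The whole series holds 16813 genes with such a probe set, and 41420 probe sets in all. There were 3 arrays of the genotype Arid1a f/f and 3 of the genotype Arid1a d/d, all from uteri of intact females. By the usual notation f is a floxed and d a deleted allele of Arid1a, whose protein is part of SWI/SNF, a complex that moves nucleosomes. The recombinase, its promoter and the cells in which it acts are not given in the sources used here, nor whether each array was 1 animal. The p-values below therefore measure the spread between these arrays, which may be technical in part.

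The Hoxa genes are known to be active in successive stretches of the female tract: Hoxa9 in the oviduct, Hoxa10 in the uterus, Hoxa11 in the uterus and cervix, and Hoxa13 towards the vagina. Pax2, Lhx1 and Emx2 are needed for the duct to form in the embryo, and the related Msx1 and Msx2 act in its epithelium and mesenchyme and later at implantation. Sox17 is a factor of the uterine epithelium and glands and also of endothelium. The study's title concerns endometrial gland development, and the comparison asks whether the genes that lay out the tract differed between the genotypes at an age when glands are forming.

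The promoters of Hoxa11, Msx1 and Msx2 are shown because Hoxa11 was the member whose genotypes did not overlap, and Msx1 and Msx2 are close relatives with unlike values. Each line is the 250 bases before the start site from RefSeq (GRCm38.p6), on the gene's own strand, which is the minus strand for all 3 genes. Capitals mark matches on either strand to the CCAAT box, the GC box GGGCGG, the TATA box TATAAA, the CREB core TGACGT, the AP-1 site TGANTCA and the homeodomain core TAATTA; no motif is part of another.
Hoxa11, chr6:52245811-52246060: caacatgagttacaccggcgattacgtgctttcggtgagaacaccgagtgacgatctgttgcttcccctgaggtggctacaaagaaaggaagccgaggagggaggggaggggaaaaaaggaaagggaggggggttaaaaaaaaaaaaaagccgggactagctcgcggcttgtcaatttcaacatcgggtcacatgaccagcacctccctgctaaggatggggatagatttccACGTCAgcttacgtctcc
Msx1, chr5:37824586-37824835: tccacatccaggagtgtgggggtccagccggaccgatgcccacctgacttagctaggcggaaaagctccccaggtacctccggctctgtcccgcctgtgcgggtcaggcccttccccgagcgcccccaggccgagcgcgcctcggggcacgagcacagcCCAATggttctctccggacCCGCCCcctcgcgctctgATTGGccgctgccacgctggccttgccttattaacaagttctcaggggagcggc
Msx2, chr13:53472781-53473030: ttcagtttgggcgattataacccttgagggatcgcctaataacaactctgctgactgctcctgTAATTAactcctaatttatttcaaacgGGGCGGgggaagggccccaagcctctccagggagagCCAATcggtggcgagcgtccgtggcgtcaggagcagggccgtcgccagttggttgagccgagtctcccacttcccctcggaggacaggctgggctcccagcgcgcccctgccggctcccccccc

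The Hoxa11 window held 1 TGACGT match and no other of the motifs, with 52.0% G and C and 13 CpG. TGACGT was found in 6.47% of all 32851 windows of that length in the table. The Msx1 window held 2 CCAAT and 1 GGGCGG match, and the Msx2 window 1 CCAAT, 1 GGGCGG and 1 TAATTA match. CCAAT occurred in 33.8%, GGGCGG in 32.7% and TAATTA in 4.84% of all windows. TATAAA (12.4% of windows) and TGANTCA (6.75%) had no match in the 3 windows shown. All 3 windows were richer in CpG than the median window with 6, with 13 for Hoxa11, 20 for Msx1 and 16 for Msx2. A match is a string of letters, not a bound site.

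With all 6 arrays none of the members changed between the genotypes by limma at an adjusted p under 0.05. Of the 14 member probe sets 0 passed, where 0.524% of all probe sets did, and of the 9 member genes, each by its brightest probe set, 0 passed, where 1.14% of all genes did. At an unadjusted p under 0.05 it was 2 of 14 probe sets, those of Hoxa11 and the brighter one of Msx2, against 9.85% of all probe sets. The d/d values all lay below the f/f values for 1 of the 14, that of Hoxa11, as they did for 7.47% of all probe sets. The differences were below 0 for 8 of the 14 and above 0 for 6. The targeted gene, Arid1a, was lower in d/d (log2 difference -0.58 ± 0.09 SE, limma adjusted p = 0.0342), which checks the labels only if its probe set lies in the deleted part. In the fit over genes its adjusted p was 0.0260. With 1 array left out at a time in that fit Arid1a ranged from -0.62 to -0.53, and it passed only without d/d 1 (adjusted p from 0.0232 to 0.111).

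**Figure D1:**
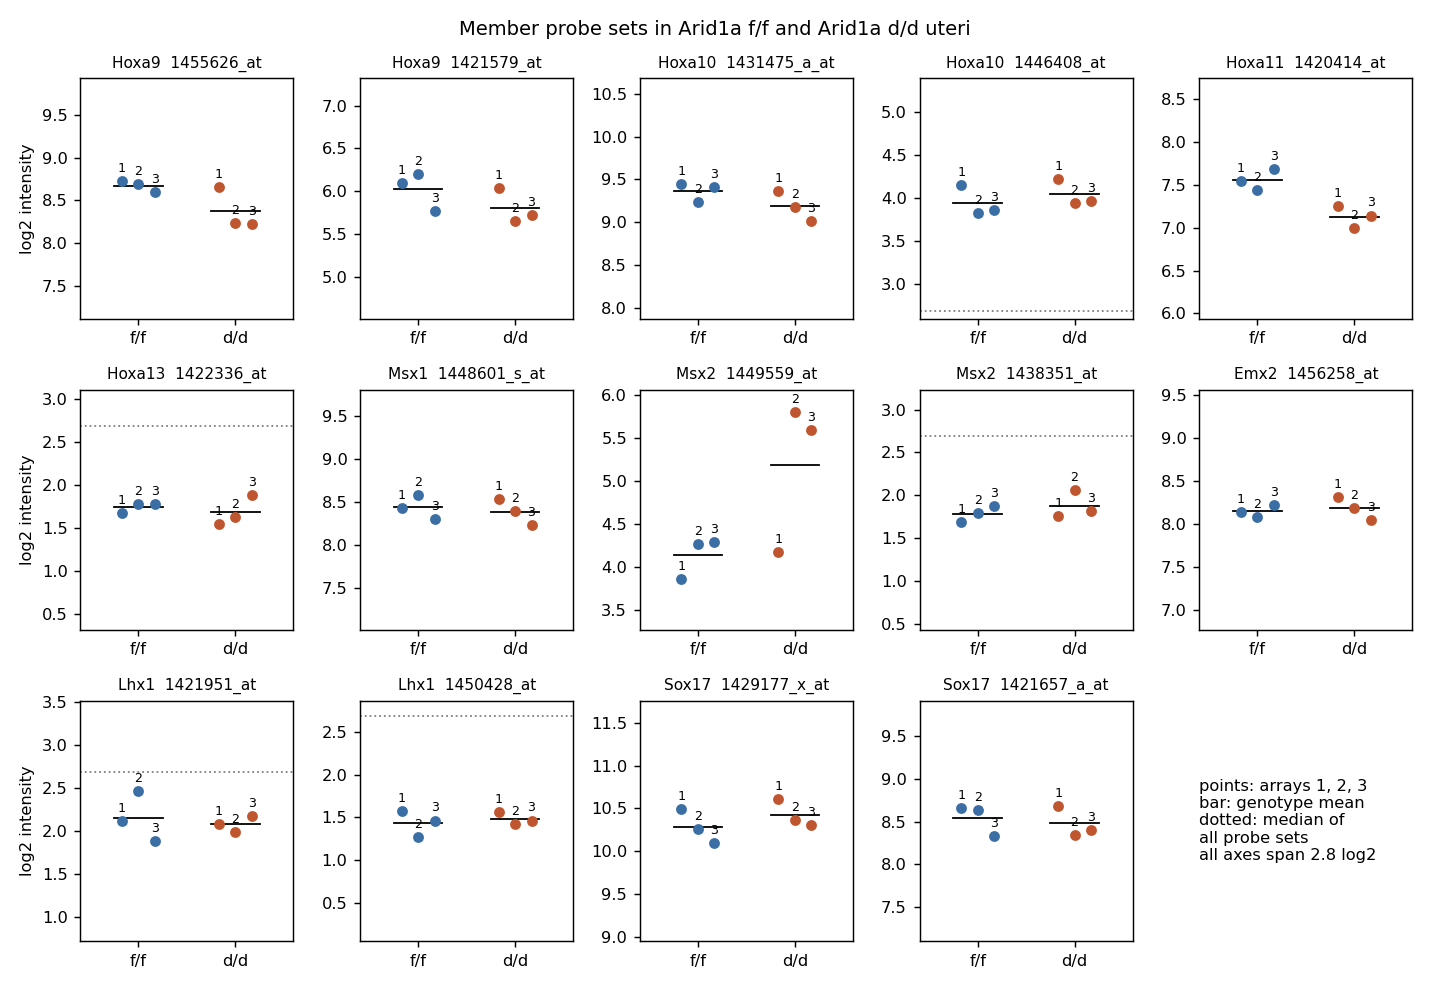
log2 intensity (y axis, the same span of 2.8 in every panel) of the 14 member probe sets in the 3 Arid1a f/f and 3 Arid1a d/d arrays (x axis); points are arrays with their replicate number, bars are genotype means, and the dotted line is the median of all probe sets, 2.69. Hoxa11 shows 2 groups that do not overlap, Msx2 shows 2 high d/d arrays, and the other panels overlap.

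Levels below are log2 of the deposited RMA intensity, and differences are d/d minus f/f on that scale. The median of all probe sets was 2.69, and values below it lie near background, where differences are compressed. By that measure 4 of the 14 member probe sets were dim in both genotypes: the single one of Hoxa13, the dimmer one of Msx2 and both of Lhx1. Levels of different probe sets are not compared, since probes differ in how strongly they bind.

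Hoxa11, a posterior Hox factor of uterine stroma needed for decidualization, had the smallest p-value of the members. Its probe set 1420414_at stood at 7.54, 7.43 and 7.68 in f/f 1, 2 and 3 and at 7.25, 7.0 and 7.14 in d/d 1, 2 and 3. No d/d value reached the f/f range, and the lowest f/f and the highest d/d value were 0.19 apart. The means were 7.55 ± 0.12 and 7.13 ± 0.13 (SD, n = 3), a log2 difference of -0.42 ± 0.11 (SE) with a 95% interval of -0.67 to -0.18, that is a d/d level of 0.746 of the f/f level. The difference exceeded the spread within each genotype, but limma's adjusted p was 0.173 over probe sets and 0.132 over genes. With 1 array left out at a time the difference ranged from -0.48 to -0.36 and the adjusted p over genes from 0.0566 to 0.446, so Hoxa11 passed in none of these fits.

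The antisense transcript that overlaps the start of Hoxa11, Hoxa11os, was read by a probe set of its own, and is named here after its values were seen. Its brighter probe set stood at 7.19, 7.58 and 7.64 in f/f and 6.76, 7.19 and 7.25 in d/d, with a log2 difference of -0.40 ± 0.17 (SE, limma adjusted p = 0.473). The groups overlapped, because f/f 1 was as low as d/d 2 and d/d 3. Its other probe set was dim in both genotypes.

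Hoxa9, which is known from the oviduct end of the tract and acts with the other posterior Hox genes, was read by 2 probe sets. The brighter, 1455626_at, stood at 8.73, 8.69 and 8.59 in f/f and at 8.66, 8.24 and 8.23 in d/d. Arrays d/d 2 and d/d 3 lay below every f/f array, and d/d 1 lay within the f/f range. The log2 difference was -0.30 ± 0.13 (SE, 95% interval -0.59 to 0.00068, limma adjusted p = 0.508). The dimmer probe set, 1421579_at, had the values 6.10, 6.20 and 5.78 in f/f and 6.04, 5.65 and 5.73 in d/d. Its difference was -0.22 ± 0.14 (SE), of the same sign as that of the brighter.

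Hoxa10, the Hox factor of the uterine stroma that is needed for implantation, differed by less. Its brighter probe set, 1431475_a_at, stood at 9.45, 9.24 and 9.41 in f/f and 9.37, 9.18 and 9.02 in d/d, with a log2 difference of -0.18 ± 0.11 (SE, 95% interval -0.44 to 0.083, limma adjusted p = 0.697). The suffix _a_at marks probes shared by several transcripts of 1 gene. Its dimmer probe set, 1446408_at, stood at 4.15, 3.82 and 3.86 in f/f and 4.23, 3.94 and 3.96 in d/d, with a difference of 0.10 ± 0.12 (SE). The genotypes overlapped in both, the 2 probe sets differed in sign, and neither passed. The brighter one's difference was -0.094 without d/d 3, and the mean of both probe sets gave -0.039.

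Hoxa13, which specifies the lowest part of the tract, was near background in every array. Its values were 1.68, 1.78 and 1.78 in f/f and 1.55, 1.62 and 1.88 in d/d, with a log2 difference of -0.060 ± 0.11 (SE, limma adjusted p = 0.918). Among markers of the stratified vaginal epithelium, Krt13, Krt14 and Trp63 lay below the median in both genotypes as well. Krt5 and Krt15 did not, and both were lowest in the arrays numbered 1. Krt15 stood at 2.65 in d/d 1 and 3.75 in f/f 1, and reached 5.83 in f/f 2.

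**Figure D2:**
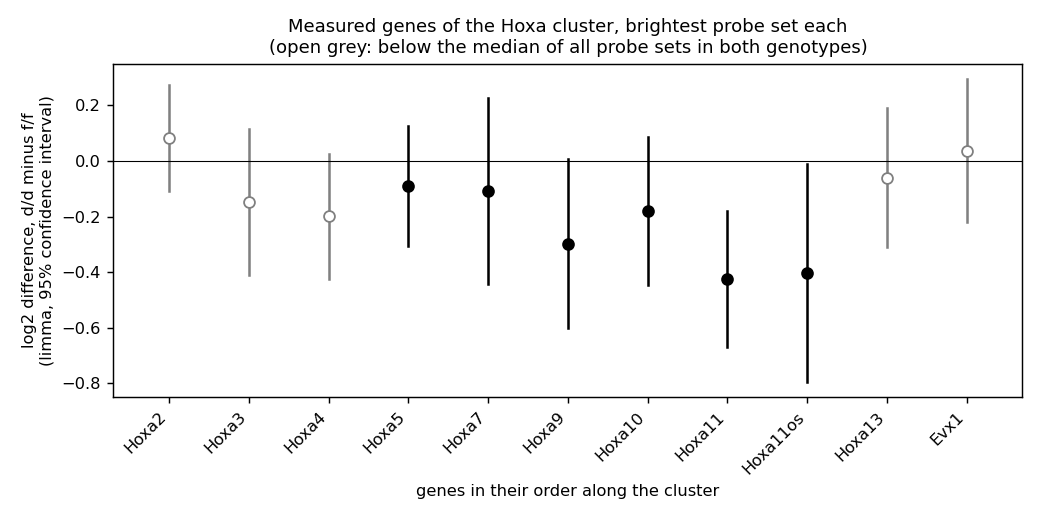
log2 difference, d/d minus f/f (y axis, with the limma 95% interval over genes as bars), of the brightest probe set of each gene measured here, in the order of the Hoxa cluster (x axis); open grey points are dim (under 2.69 in both genotypes). Hoxa9, Hoxa10, Hoxa11 and Hoxa11os lie below 0 at -0.30, -0.18, -0.42 and -0.40, and the intervals of Hoxa11 and Hoxa11os exclude 0 before adjustment.

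Along the cluster, the neighbours that were above background on the anterior side were Hoxa5 and Hoxa7. Hoxa5 had a log2 difference of -0.091 by its brighter probe set and -0.34 by the other, and Hoxa7 one of -0.11. Hoxa2, Hoxa3 and Hoxa4 were below the median in both genotypes, and so was Evx1, the gene beyond Hoxa13. None of these genes passed.

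Msx2, a homeodomain repressor of the Müllerian duct epithelium, had the largest difference among the members, and it came from 2 of the 3 d/d arrays. Its brighter probe set, 1449559_at, stood at 3.87, 4.27 and 4.30 in f/f and at 4.18, 5.81 and 5.60 in d/d. Arrays d/d 2 and d/d 3 lay more than 1 log2 unit above every f/f array, while d/d 1 lay within the f/f range. The means were 4.14 ± 0.24 and 5.20 ± 0.89 (SD, n = 3), a log2 difference of 1.05 ± 0.38 (SE) with a 95% interval of 0.18 to 1.92, or a ratio of 2.07. The difference was not past the threshold (limma adjusted p = 0.384 over probe sets, 0.326 over genes). The dimmer probe set, 1438351_at, lay below the median in all arrays, between 1.69 and 2.06, and gave 0.095 ± 0.11 (SE). The mean of both probe sets, which includes the dim one, gave 0.57. Without d/d 2 the brighter probe set gave 0.75 and without d/d 3 it gave 0.85.

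Msx1, the close relative of Msx2, showed no such pair of high arrays. Its probe set, 1448601_s_at, whose suffix marks probes that can match more than 1 transcript, stood at 8.43, 8.57 and 8.30 in f/f and 8.53, 8.39 and 8.23 in d/d. The genotypes overlapped throughout. The log2 difference was -0.052 ± 0.11 (SE), and its 95% interval of -0.31 to 0.21 allows a d/d level between 0.805 and 1.15 of the f/f level. Whether the Msx1 and Msx2 differences differ from each other was not tested.

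Emx2, a homeodomain factor without which the tract does not form and which HOXA10 is known to repress, overlapped between the genotypes. It stood at 8.14, 8.09 and 8.23 in f/f and 8.31, 8.19 and 8.05 in d/d, with a log2 difference of 0.031 ± 0.098 (SE) and a 95% interval of -0.19 to 0.26, or ratios of 0.874 to 1.19. Array d/d 1 was the highest of the 6 and d/d 3 the lowest. Its antisense neighbour Emx2os, named after its values were seen, had a difference of 0.29 ± 0.13 (SE, limma adjusted p = 0.525), with f/f 3 as high as the d/d arrays.

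Lhx1, a LIM homeodomain factor of the duct's tip, was near background. Its probe sets 1421951_at and 1450428_at ranged from 1.88 to 2.46 and from 1.27 to 1.57 over the 6 arrays, with log2 differences of -0.072 and 0.049. The antisense neighbour Lhx1os lay below the median too. These values give a limit of what the array can show for Lhx1, not a level of 0.

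Sox17, an HMG-box factor of uterine epithelium, glands and endothelium, had high intensities in both genotypes by 2 probe sets. The brighter, 1429177_x_at, whose suffix marks probes that may cross-hybridise, stood at 10.49, 10.27 and 10.10 in f/f and 10.61, 10.36 and 10.31 in d/d, a log2 difference of 0.14 ± 0.13 (SE, 95% interval -0.15 to 0.43). The other, 1421657_a_at, stood at 8.65, 8.64 and 8.33 in f/f and 8.68, 8.35 and 8.40 in d/d, a difference of -0.061 ± 0.13 (SE, 95% interval -0.36 to 0.24). The probe sets differed in sign, the groups overlapped in both, and limma's adjusted p was 0.805 and 0.931. Array d/d 1 was the highest of the 6 in both. Beside these values, the gland gene Foxa2 was lower in d/d (below), and all 5 measured endothelial markers had differences below 0, with summed intensities of 725 to 777 in f/f and 421 to 581 in d/d. All 6 measured markers of simple epithelium had differences above 0. The part of these cell types in the Sox17 values was not tested.

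**Figure D3:**
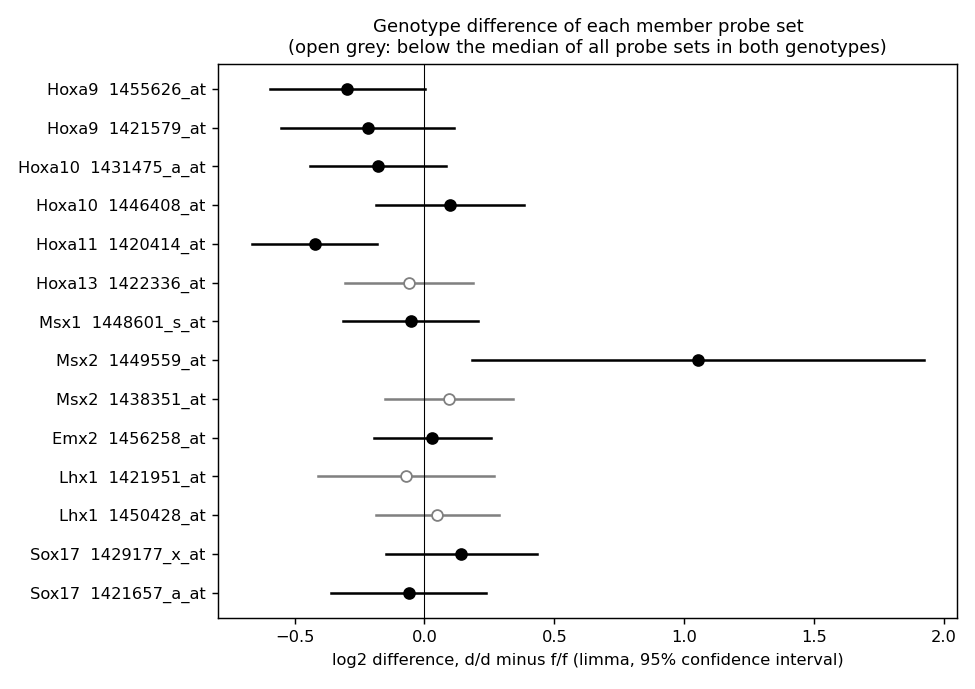
log2 difference, d/d minus f/f (x axis, with the limma 95% confidence interval over probe sets), of each member probe set (y axis); open grey points are dim (under 2.69 in both genotypes). Of the 14 intervals 11 lie within a 1.5-fold change either way, and those that reach beyond it belong to Hoxa9, Hoxa11 and Msx2.

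The intervals give the size of change that these arrays allow. For 11 of the 14 probe sets the 95% interval lay within a 1.5-fold change in either direction, and 7 of these 11 were above the median of all probe sets. Those 7 were the dimmer probe set of Hoxa9, both of Hoxa10, that of Msx1, that of Emx2 and both of Sox17. The 3 whose intervals reached further were the brighter probe set of Hoxa9, that of Hoxa11 and the brighter one of Msx2.

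Array d/d 1 correlated less with the other d/d arrays than these did with each other. Over all probe sets the correlation between arrays ran from 0.987 to 0.995. Array d/d 1 correlated at 0.995 with f/f 1, which has the same number, and at 0.991 with both f/f 2 and f/f 3. With the other d/d arrays it correlated at 0.990 and 0.991, and these correlated with each other at 0.995. The Arid1a value of d/d 1, 6.98, was the lowest of all 6 arrays.

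Without d/d 1, Msx2 and Hoxa9 passed over genes. Msx2 then had a log2 difference of 1.56 ± 0.15 (SE, limma adjusted p = 0.00255) and Hoxa9 one of -0.44 ± 0.10 (SE, limma adjusted p = 0.0480). Hoxa11 stood at -0.48 ± 0.12 (SE, limma adjusted p = 0.0566). These 2 of 9 member genes compare with 4.88% of all genes called in that fit, which leaves 2 d/d arrays. Over probe sets 1 of 14 members passed, the brighter one of Msx2, against 2.34% of all, and the brighter one of Hoxa9 had an adjusted p of 0.0717. Without both arrays numbered 1, Msx2 alone passed, at 1.42 ± 0.12 (SE, limma adjusted p = 0.00516), against 3.21% of all genes and 1.59% of all probe sets. Hoxa9 then had an adjusted p of 0.106. Leaving out any of the other 5 arrays brought no member past the threshold.

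**Figure D4:**
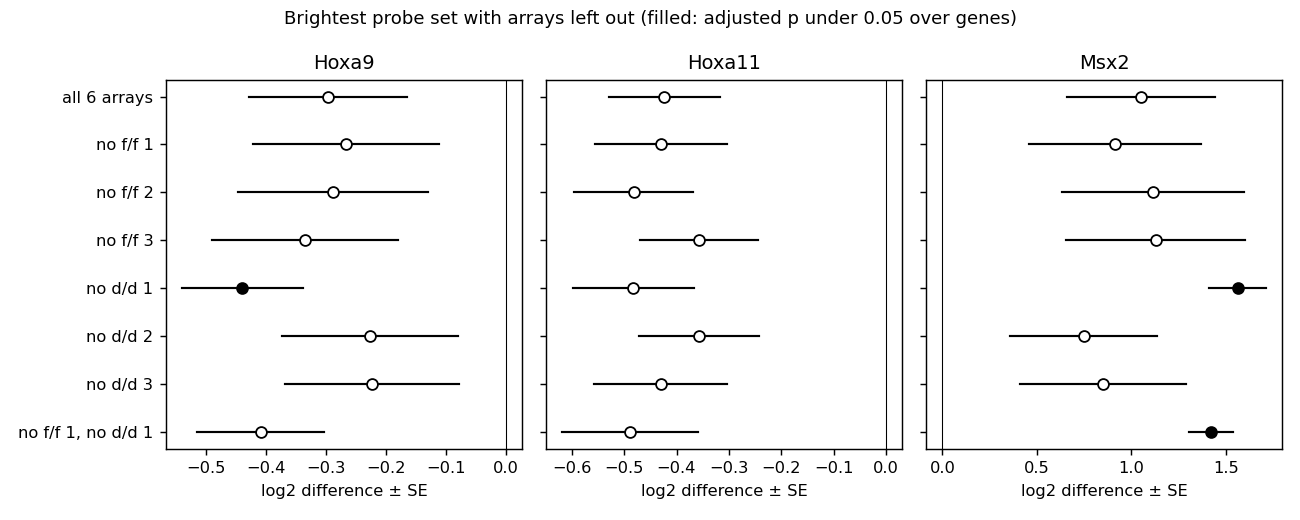
log2 difference, d/d minus f/f, ± SE (x axis, limma over genes; scales differ between panels) of the brightest probe set of Hoxa9, Hoxa11 and Msx2 with all 6 arrays or with arrays left out (y axis); filled points have an adjusted p under 0.05. Hoxa11 passes in none of the 8 fits, Hoxa9 only without d/d 1, and Msx2 without d/d 1 and without both arrays numbered 1.

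Few markers of the cell types in the tissue passed the test. For stroma it was 0 of 9, for smooth muscle 0 of 6, for endothelium 0 of 5 and for fat 0 of 6. For simple epithelium it was 1 of 6 (Cdh1, which rose), and for glandular epithelium 2 of 5 (Foxa2 and Cxcl15, which fell). Cxcl15 stood at 4.76, 5.82 and 6.17 in f/f and 1.72, 1.75 and 2.13 in d/d. Its log2 difference was -3.71 ± 0.33 (SE, limma adjusted p = 0.00538). Its d/d values were under 2.69, so the fold may be understated. Of the 5 gland differences 4 were below 0 and 1 above. In bulk tissue fewer cells of a type and less RNA per cell cannot be told apart. All 9 stromal markers were measured and all 9 had differences below 0, with a median of -0.18; their summed intensity was 18136 to 19798 in f/f and 14892 to 17355 in d/d, and none of them was dim. For smooth muscle 5 of 6 differences were below 0, with sums of 3826.5 to 4304 in f/f and 3105 to 4078 in d/d, which overlap. All 6 measured fat markers had differences below 0, with a median of -1.18 and sums of 591 to 924 in f/f and 196 to 482 in d/d; only Lep among them was dim. All 6 measured markers of simple epithelium had differences above 0, with sums of 1867 to 2214 in f/f and 2916 to 3523 in d/d. In d/d 1 the epithelial sum was 2916, above every f/f array and the lowest of the d/d arrays. Its Msx2 value was also the lowest of the d/d arrays and lay within the f/f range. The d/d 1 sum of stroma, 17355, was the highest of the d/d arrays. So were its sums of smooth muscle, endothelium, mesothelium, fat, leukocytes and glandular epithelium. Its sums of stratified epithelium, oviduct and kidney markers were the lowest, and that of ovary lay between. The d/d 1 values of Hoxa9, Hoxa10 and Hoxa11 were the highest of the d/d arrays, as were those of Msx1, Emx2 and Sox17. Those of the dim Hoxa13 and Lhx1 were not. The part of these cell types in the member values was not tested.

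The 3 genes whose values followed Hoxa11 most closely over the 6 arrays, among 10980 genes brighter than the median of all probe sets, were Tnk2 (a kinase; Pearson r = 0.997), Strn4 (a striatin; r = 0.995) and Col4a2 (a collagen of basement membrane; r = 0.993). This describes 6 arrays, and no p-value is given. Their log2 differences were -0.14, -0.23 and -0.48, and none of them passed.

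Among the other Hox genes, 26 of 35 were measured, and 0 rose, 0 fell and 26 did not pass. The median difference was 0.023, beside -0.011 for all genes. Those of smallest p were Hoxb3 at 0.57 ± 0.18 (SE), Hoxd11, the relative of Hoxa11 in the Hoxd cluster, at -0.42 ± 0.15 (SE), and Hoxb2 at 0.24 ± 0.09 (SE). Hoxd11 stood at 4.54, 4.83 and 5.06 in f/f and 4.27, 4.32 and 4.58 in d/d, so that its groups overlapped by 1 array. Of the 26 genes 12 were dim in both genotypes.

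The TALE homeodomain proteins, which bind DNA together with Hox proteins, were measured by 8 of 9 genes, and 0 rose, 0 fell and 8 did not pass. The median difference was -0.14. Pknox2 stood at 5.79, 5.69 and 5.75 in f/f and 5.38, 4.92 and 5.32 in d/d, a log2 difference of -0.54 ± 0.13 (SE, limma adjusted p = 0.119), without overlap between the genotypes. Meis3 gave -0.29 and Pknox1 -0.21 by its brightest probe set. The other Pknox1 probe sets gave -0.36 and -0.22, and neither passed. Meis1 and Meis2 gave -0.034 and -0.13. Without d/d 1, Pknox2 fell, by 0.63 on the log2 scale (limma adjusted p = 0.0381), but it did not pass without both arrays numbered 1 (-0.61, limma adjusted p = 0.0949). Its other probe set was dim and gave -0.017.

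Of 30 measured genes among 32 other transcription factors of the urogenital tract, 1 rose (Dlx5), 1 fell (Foxa2) and 28 did not pass. Dlx5, a distal-less homeodomain factor of the Müllerian epithelium, stood at 5.92, 5.89 and 5.93 in f/f and 6.63, 7.26 and 6.92 in d/d. The 3 f/f arrays lay within 0.05 of each other and every d/d array lay above them. Its log2 difference was 1.03 ± 0.15 (SE, limma adjusted p = 0.0274 over genes and 0.0314 over probe sets). Dlx6, its neighbour in the genome, stood at 5.07, 4.84 and 4.91 in f/f and 5.55, 6.26 and 5.92 in d/d, a difference of 0.97 ± 0.17 (SE, limma adjusted p = 0.0529). Foxa2, the factor of the gland epithelium, stood at 4.21, 4.53 and 4.76 in f/f and 3.31, 2.93 and 3.04 in d/d, and fell by 1.41 ± 0.16 (log2, SE; limma adjusted p = 0.0116). Neither call held in every fit with 1 array left out. With all 6 arrays 192 genes passed in the whole table. With any array other than d/d 1 left out it was 26 to 83. Dlx5 passed without d/d 1 but not without any of the other 5 arrays, where its difference was 0.86 to 1.04 and its adjusted p 0.0584 to 0.139. Foxa2 passed when either array numbered 1 was dropped, but not when any array numbered 2 or 3 was, where its difference was -1.40 to -1.28 and its adjusted p 0.0526 to 0.0834.

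Dach2, a nuclear cofactor of duct development, had its highest values in d/d 2 and then d/d 3, as Msx2 had. It stood at 2.39, 2.53 and 2.72 in f/f and 2.98, 4.32 and 3.90 in d/d, so that d/d 1 lay nearest the f/f arrays, of which f/f 1 and f/f 2 were under the median of 2.69 (log2 difference 1.19 ± 0.31 SE, limma adjusted p = 0.141). Osr2, a zinc finger factor, gave -1.15 ± 0.32 (SE, limma adjusted p = 0.181). The other probe sets of Dach2 and Osr2 were dim in both genotypes and gave 0.31 and -0.029, and neither passed. Without d/d 1 the list had 3 genes that rose, Dach2, Dlx5 and Dlx6, and 2 that fell, Foxa2 and Sox18, and the same counts held without both arrays numbered 1.

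Of 19 measured signalling genes of duct formation and regional fate, 0 rose, 0 fell and 19 did not pass, with a median of 0.049. Wnt7a, the epithelial Wnt that keeps the Hoxa and Msx genes active in the developing tract, stood at 4.52, 4.80 and 4.77 in f/f and 5.32, 6.74 and 6.22 in d/d. Every d/d value exceeded the f/f values, with d/d 1 the lowest of the d/d arrays, and the log2 difference was 1.39 ± 0.32 (SE, limma adjusted p = 0.102). Its other 2 probe sets gave -0.037 and -0.035. Amhr2, the receptor of anti-Müllerian hormone, gave -0.70 ± 0.17 (SE, limma adjusted p = 0.123). Its other probe sets gave -0.71 and -0.25, and neither passed. Fgfr2, a receptor of the epithelium, gave 0.50 ± 0.13 (SE, limma adjusted p = 0.160). A dimmer Fgfr2 probe set did pass over probe sets: it stood at 2.59, 2.49 and 2.60 in f/f and 3.67, 3.67 and 3.41 in d/d, with a log2 difference of 1.02 ± 0.10 (SE, limma adjusted p = 0.00869). Its f/f values lay under the median of 2.69. The third Fgfr2 probe set gave 0.45 ± 0.12 (SE) and did not pass. Wnt5a, the stromal Wnt, gave 0.038 by its brightest probe set. Without d/d 1, Wnt7a rose, by 1.78 (limma adjusted p = 0.00247).

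Of 8 genes reported to lie downstream of the members 7 were measured, and 0 rose, 1 fell and 6 did not pass; Emx2, itself a member, is among the 7. Ihh, a hedgehog ligand reported as a target of SOX17 in the uterine epithelium, fell by 1.49 ± 0.15 (log2, SE; limma adjusted p = 0.00918), with values of 4.17, 4.15 and 4.30 in f/f and 3.07, 2.50 and 2.60 in d/d. The d/d 2 and d/d 3 values were under 2.69, so the fold may be understated. Ihh passed without f/f 1, d/d 1 or d/d 2 but not without f/f 2, f/f 3 or d/d 3, where its difference was -1.52 to -1.43 and its adjusted p 0.0522 to 0.0634. Both Sox17 probe sets overlapped between the genotypes in the same arrays. Whether the Ihh and Sox17 values are linked was not tested. Ptger4 and Itgb3, reported downstream of HOXA10, gave -0.82 ± 0.22 and -0.51 ± 0.16 (SE, limma adjusted p of 0.157 and 0.242), and Ptger3 gave 0.25. The other probe set of Ptger4 gave -0.73, and that of Itgb3, which was dim, 0.016. Without d/d 1, where 4.88% of all genes were called, Wnt7a rose and Ihh and Ptger4 fell. Without both arrays numbered 1, where 3.21% were called, Itgb3 fell as well.

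**Figure D5:**
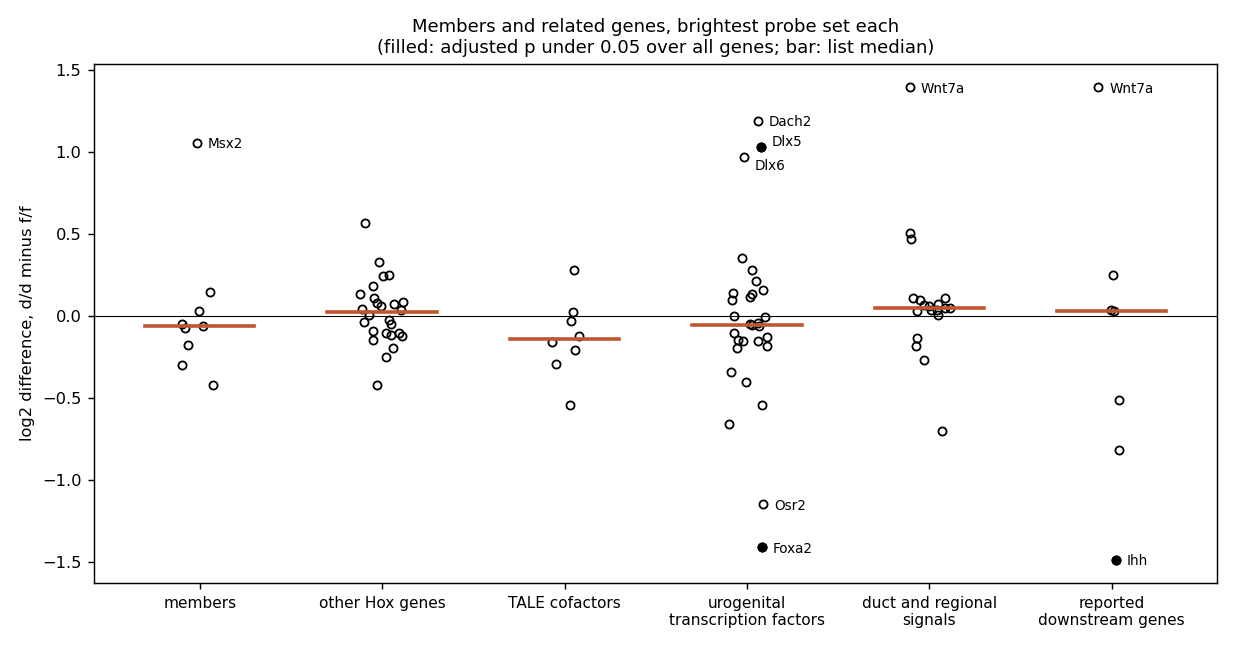
log2 difference, d/d minus f/f (y axis), of the brightest probe set of each measured gene in the member list and the 5 lists of related genes (x axis, points spread sideways for sight); filled points have an adjusted p under 0.05 over all genes, bars are list medians and names mark differences beyond 0.9. The filled points are Dlx5 at 1.03, Foxa2 at -1.41 and Ihh at -1.49, and list medians lie between -0.14 and 0.049.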

How the data were processed

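Labelled cRNA from 6 uteri samples was hybridised to Affymetrix arrays. Linear intensity values, 1 for each probe set on each array, were deposited; the authors made them with RMA per the submitters' processing notes, without version or settings. RMA corrects background, gives arrays a shared distribution and summarises probes, which compresses differences at low intensity. Here log2 was taken with no constant, and limma 3.58.1 in R 4.3.3 (lmFit, eBayes, 2-sided, no covariate) compared d/d with f/f over all 41420 probe sets, and over 16813 genes by the probe set of highest mean among the 31562 with 1 symbol. Benjamini-Hochberg adjustment ran over each whole table, with a threshold of 0.05. With 3 arrays per genotype precision is limited.

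The members and lists were chosen with earlier results of these data known. The text names all members, every called gene of a related list and up to 3 more of smallest p per list, Arid1a and the 3 genes most like the leading member. Wnt5a, Meis1, Meis2, Ptger3, Sox18, the marker genes, the Hoxa neighbours and the antisense genes are named besides, after their values were seen. Steps were tested on simulated data. Alternatives were a replicate block, a variance trend, array weights, 2 normalizations, filters, arrays left out, the threshold, the mean of probe sets and log2 of the value plus 1. The calls of Arid1a and of related lists with arrays left out were added after seeing the data.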

Additional observations from a re-analysis of the deposited data

How the results depend on the processing

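The member counts of 0 held under every alternative except without d/d 1 (1 probe set, 2 genes) and without both arrays numbered 1 (1 probe set, 1 gene). The main fit did not take same-numbered arrays as pairs. Their deviations from the genotype means correlated at 0.461, 0.0228 and 0.178 for arrays 1, 2 and 3. The first was the highest value between any f/f and d/d array, but f/f 3 correlated more with d/d 2, at 0.299. These values do not settle whether the arrays are paired. With the replicate block 574 probe sets and 457 genes passed instead of 217 and 192. Hoxa11 and Msx2 then had limma adjusted p of 0.0747 and 0.0709 over genes. Array weights gave 329 probe sets and 381 genes, leaving out both arrays numbered 1 gave 657 and 540, and an adjusted p under 0.10 gave 462 and 403. With 1 array left out, probe sets ranged from 37 to 971, genes from 26 to 821, member probe sets from 0 to 1 and member genes from 0 to 2. Hoxa9, Hoxa10, Hoxa11 and Msx2 kept their sign in all 16 alternatives, though Hoxa10 ranged from -0.27 to -0.039 and Msx2 from 0.57 to 1.56. Some alternatives, such as the replicate block and the variance trend, could not change a difference. All but the mean of probe sets used the same probe set of these genes, and the dimmer one of Hoxa10 had the other sign. Differences near 0 changed sign without being called: Emx2 at -0.0017 with array weights and -0.038 without both arrays numbered 1, and Sox17 at -0.061 without _x_at probe sets, which leaves its other probe set. With 1 array left out Hoxa13 ranged from -0.16 to 0.0092, Msx1 from -0.13 to 0.025, Emx2 from -0.033 to 0.098 and Lhx1 from -0.21 to 0.084. Apart from the looser threshold and the change of probe set, the cause was not tested. Hoxa13, Lhx1 and the dimmer Msx2 probe set are limited by their low signal over background. Hoxa13 and Lhx1 had no value with dim probe sets left out.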
